A study of Mus musculus with 2 samples.

Results

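Contractile vascular smooth muscle cells (VSMCs) were taken as the cells with the highest summed level of 5 contractile genes in a pooled culture of mouse aortic VSMCs. The genes were Acta2 (smooth muscle α-actin), Tagln (transgelin, an actin-bundling protein), Myl9 (the regulatory light chain of smooth muscle myosin), Cnn1 (calponin 1, an inhibitor of actin-activated myosin) and Lmod1 (leiomodin 1, a nucleator of actin filaments). For each cell, ln(1 + UMIs per 10000) was added over these 5 genes, where a UMI (unique molecular identifier) is 1 counted RNA molecule. The top 5% of cells by this score were chosen, which gave 652 contractile VSMCs out of 13045 cells, and the other 12393 cells were the comparison. Barcodes counted as cells from 2218 UMIs and 200 genes upwards.

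VSMCs of the healthy arterial wall hold a contractile apparatus of smooth muscle actin, myosin and their regulators, whose genes are switched on by serum response factor (SRF) with its coactivator myocardin at DNA elements called CArG boxes. In culture the cells usually lose much of this apparatus and take up a modulated state, in which they divide and secrete matrix, osteopontin, chemokines and proteases. SRF also drives genes of the non-muscle actin cytoskeleton through the myocardin-related transcription factors, and TEAD factors with the coactivator YAP share many of its targets.

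The cells came from aortas of C57BL/6 mice and were primary cells obtained from suppliers. A total of 4 cultures, with no replicate of any, were tagged with TotalSeq-A hashing antibodies and mixed into 1 droplet library: VSMCs of young mice (12 weeks) and of old mice (58 to 78 weeks), both untreated, young VSMCs with 0.1 µM angiotensin II and old VSMCs with siRNA against Piezo1, each for 48 h. The siRNA dose was 20 nM per the labels, and the study's text also names another dose. The sources used here do not pair hashtags with cultures. A drawing in the study numbers the cultures in the order young, old, young with angiotensin II and old with siPiezo1 without saying that these are hashtag numbers, so values are given by hashtag 1 to 4 with no culture name. The library held 138733332 gene UMIs over 2472397 barcodes, of which 115033686 lay in the 13045 cells, and the medians over cells were 7915 UMIs and 2884 genes. Of all barcodes, 0 occurred more than once, and the hashtags were read from a second library of the same barcodes.

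The score placed the contractile VSMCs in the tail of a continuous distribution and not in a separate peak. The median score was 1.49 over all cells, 8.98 in the contractile VSMCs and 1.37 in the other cells, and 3506 cells (26.9%) had none of the 5 genes. The last cell inside had a score of 7.55 from 6 Acta2, 5 Tagln, 1 Myl9, 2 Cnn1 and 1 Lmod1 UMIs, and the first cell outside had 7.54 from 8 Acta2, 8 Tagln, 3 Myl9, 0 Cnn1 and 0 Lmod1 UMIs. Within 0.5 of the boundary there were 144 contractile VSMCs and 173 other cells, so the set is a range of the score. All 5 genes had a UMI in 217 contractile VSMCs (33.3%), 4 in 299 (45.9%), 3 in 133 (20.4%) and 2 in 3 cells.

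**Figure D1:**
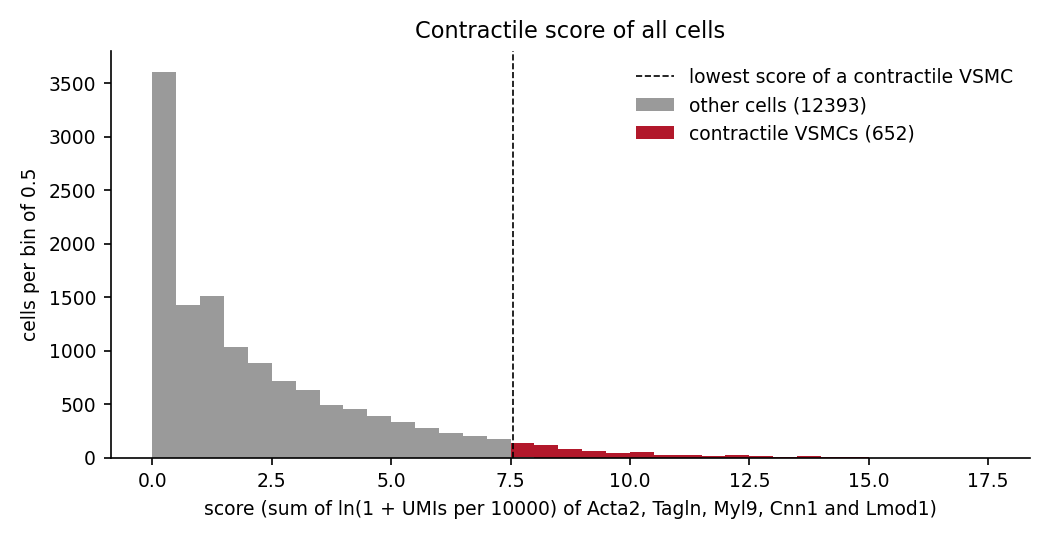
Histogram of the score of all 13045 cells (x axis, summed ln(1 + UMIs per 10000) of the 5 genes; y axis, cells per bin of 0.5), with contractile VSMCs in red and other cells in grey. Counts decline through the dashed line at the lowest score inside, with no gap there.

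Over all cells, depth and quality were close in both groups. The median was 8502 UMIs and 2870 genes in contractile VSMCs and 7888 UMIs and 2884 genes in other cells. Mitochondrial UMIs made up a median of 1.08% and 1.35%, and ribosomal protein UMIs 18.5% and 18.7%. Scrublet, a doublet caller, marked 128 of 652 contractile VSMCs (19.6%, 95% Clopper-Pearson interval 16.7 to 22.9) and 2930 other cells (23.6%, 22.9 to 24.4). Doublets were kept. All intervals here and below are 95% intervals for counting error only, because there is 1 library with no replicate culture, and for the same reason no test was made between groups of cells.

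The 5 genes that chose the cells differed by construction, and their values are given as a description. Levels are CPM, UMIs per 1000000 UMIs of the summed cells, and a ratio is the level in contractile VSMCs over that in other cells. Acta2 stood at 2974 CPM in contractile VSMCs and 192 CPM in other cells, Tagln at 3754 and 431 CPM, and Myl9 at 429 and 35.8 CPM. Cnn1 stood at 210 and 6.87 CPM, the widest ratio of the 5 (30.5, interval 27.9 to 33.5), and Lmod1 at 109 and 9.53 CPM. Acta2 and Tagln supplied 33.8% and 35.9% of the score of the contractile VSMCs, against 16.0% from Myl9, 8.52% from Cnn1 and 5.79% from Lmod1. A contractile VSMC held a median of 20 Acta2 UMIs and 26 Tagln UMIs, with a highest count of 273 and 241 in 1 cell.

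Free RNA held these transcripts too. In the 1299325 barcodes with 1 to 100 UMIs, which stand for RNA outside cells, Acta2 was at 393 CPM, Tagln at 505 CPM and Cnn1 at 24.8 CPM, all above the other cells. After each cell was thinned to 5000 UMIs, Acta2 had a UMI in 100% of 557 contractile VSMCs and 36.3% of 10055 other cells (99.8% and 44.3% before thinning). No cell type known to lack Acta2 could be named in the culture, so a single UMI of it in another cell cannot be told apart from this background.

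Each of the 5 genes was also set aside in turn and the top 5% chosen again on the other 4, so that the gene took no part in choosing the cells. Between 555 and 592 of the 652 cells were then shared with the set above (85.1% to 90.8%). The gene left out stood 12.6-fold higher in the cells so chosen for Acta2 (interval 12.4 to 12.9), 7.42-fold for Tagln (7.30 to 7.54), 9.41-fold for Myl9 (8.94 to 9.91), 22.5-fold for Cnn1 (20.6 to 24.6) and 8.80-fold for Lmod1 (7.94 to 9.75). Each gene was thus higher in the cells chosen by the other 4, at a smaller ratio than when it took part in the choice.

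On the GRCm38 genome (GENCODE vM21, looked up by Ensembl identifier), Acta2 (ENSMUSG00000035783) lies at chr19:34241090-34255590 on the minus strand, Tagln (ENSMUSG00000032085) at chr9:45929619-45936058 on the minus strand and Myl9 (ENSMUSG00000067818) at chr2:156775420-156781658 on the plus strand. Cnn1 (ENSMUSG00000001349) lies at chr9:22099216-22109630 and Lmod1 (ENSMUSG00000048096) at chr1:135324807-135368065, both on the plus strand. UMIs were counted per gene from 3′ tags, so a value covers the gene and no single exon.

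The DNA before the start sites was read for CArG boxes in RefSeq promoters (GRCm38.p6), 250 bases per promoter, because these genes are known SRF targets. An exact CArG box has CC and GG around 6 bases that are each A or T, and it reads the same way on both strands. It was found before 439 of 27025 genes (1.62%), or in 482 of 32851 promoters (1.47%), and 2643 genes (9.78%) had a box when 1 of the inner bases could be G or C. Of the 4 score genes with a promoter in the table, Myl9 had an exact box and a second with 1 inner G, and Acta2 had a pair with 1 inner G or C each. The windows are shown 5′ to 3′ on the gene's strand, since these genes set the score, with the box in capitals. The boxes of Acta2 begin 84 and 34 bases before the start (windows chr19:34255438-34255467 and chr19:34255388-34255417, minus strand, which touch an exon annotated in GENCODE), and those of Myl9 begin 161 and 99 bases before it (windows chr2:156775283-156775332 and chr2:156775345-156775394, plus strand). The starts are those of RefSeq. The Acta2 windows lie inside the GENCODE span of the gene given above, and the Myl9 windows lie before the span of Myl9.
Acta2, upper: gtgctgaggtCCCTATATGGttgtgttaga
Acta2, lower: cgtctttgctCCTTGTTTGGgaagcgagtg
Myl9, exact: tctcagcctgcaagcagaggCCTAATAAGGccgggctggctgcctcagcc
Myl9, 1 inner G: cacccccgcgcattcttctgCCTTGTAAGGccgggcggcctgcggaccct

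Contractile genes outside the score were higher in the contractile VSMCs as well. Of 30 such genes, 20 reached 5 CPM over all cells, 19 of these were higher and 1 lower, and their median ratio was 2.23. Over the 10260 genes of at least 5 CPM the median was 0.920 and 31.5% were above 1, so a gene was more often lower than higher in the set, and the counts of each list below stand against that share. In the other cells alone 17 of the 30 genes reached 5 CPM, and these had a median ratio of 2.16. Among the 11 genes of the list at 20 CPM or more, 6 were at least 2-fold higher. Over all 6339 genes of that level outside the score, 19 (0.300%) were 2-fold or more higher and 72 (1.14%) 2-fold or more lower. The lower count was 138 without cells marked as doublets and 27 with the top 5% chosen within each hashtag. Since every gene of these cells belongs to the contrast that the score made, these counts describe the set and nothing further is read from them.

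Genes of smooth muscle actin, myosin and its kinase had ratios above 10. Actg2, smooth muscle γ-actin, stood at 81.6 CPM (interval 74.6 to 89.1) in contractile VSMCs and 2.29 CPM (2.01 to 2.59) in other cells, a ratio of 35.7. Myh11, the smooth muscle myosin heavy chain and a marker of the mature contractile state, stood at 46.6 CPM (41.4 to 52.4) and 2.04 CPM (1.78 to 2.33), a ratio of 22.9, although it was under 5 CPM over all cells. Mylk, the myosin light chain kinase that triggers contraction, stood at 41.6 and 3.03 CPM (ratio 13.7, 11.6 to 16.2). A UMI of these 3 transcripts was found in few cells of the set: Actg2 had one in 20.6% of contractile VSMCs, Myh11 in 14.4% and Mylk in 12.4%, against 1.61%, 1.05% and 2.16% of other cells. In the near-empty barcodes they were at 12.4, 10.5 and 6.20 CPM, above the level in other cells, and a cell with 0 UMIs may still hold the transcript. Kcnmb1, a subunit of a potassium channel, had a ratio of 28.0 (9.91 to 85.2) on 11 UMIs. The actin genes are close in sequence, so reads of Acta2, Actg2 and Acta1 may be split between them in a way that the counting cannot show.

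Genes of the thin filament and its anchors were higher by smaller factors. Tpm2 and Tpm1, tropomyosins that lie along actin, had ratios of 3.20 (3.12 to 3.28) and 2.26 (2.22 to 2.29), from 1165 and 365 CPM for Tpm2 and 3300 and 1461 CPM for Tpm1. Nexn (nexilin, an actin-binding protein) had a ratio of 3.07, Csrp1 (a LIM protein of smooth muscle) 2.71, Cnn2 (calponin 2) 2.14, Myl6 (the essential myosin light chain) 1.84, Cald1 (caldesmon) 1.68 and Pdlim7 1.51. Fhl1, a LIM-domain protein of muscle, was at 35.7 and 4.66 CPM (ratio 7.65, 6.49 to 8.98), and Des (desmin) at 5.73 and 1.28 CPM on 35 UMIs. Smtn (smoothelin) differed less, at 21.6 and 16.1 CPM (1.34, 1.12 to 1.60), and its ratio was below 1 in hashtags 3 and 4. Ppp1r12b, a subunit of myosin phosphatase, was the 1 lower gene (0.877, 0.794 to 0.967), and its ratio was above 1 in hashtags 2 and 3. Some markers of mature VSMCs had few or no UMIs: Pln and Pcp4 had 0 UMIs in the contractile VSMCs, and Casq2, Pdlim3, Synm and Aoc3 had 2 or 3.

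**Figure D2:**
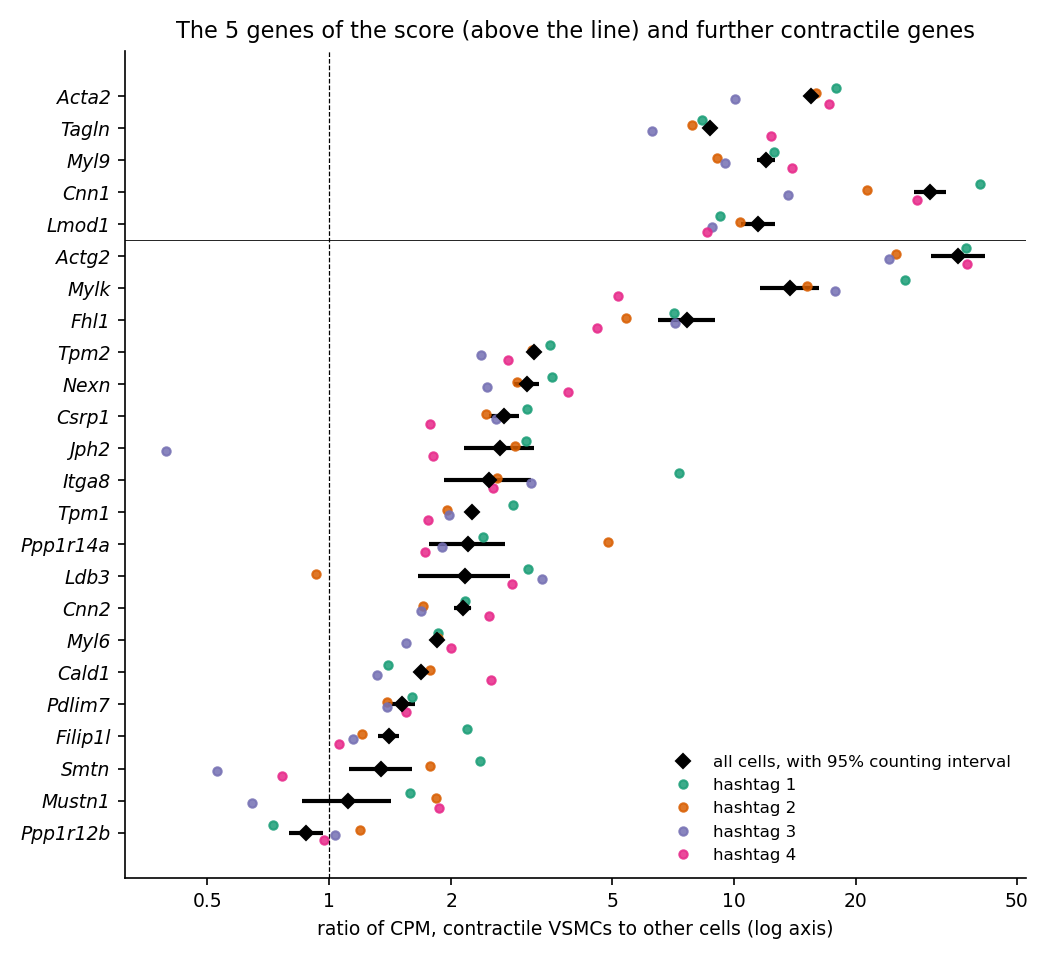
Ratio of CPM in contractile VSMCs to other cells (x axis, log scale) for the 5 score genes, above the line, and 19 of the 20 further contractile genes of at least 5 CPM. Black diamonds with bars give all cells with the 95% counting interval and coloured points the 4 hashtags; Actg2, Mylk and Fhl1 lie above 4 in each hashtag, and Smtn, Jph2, Mustn1, Ldb3 and Ppp1r12b are the genes with a hashtag below 1.

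Of the further contractile genes, 25 had a promoter in the RefSeq table, and 5 (20.0%) had an exact CArG box: Cnn2, Fhl1, Filip1l, Ldb3 and Myl6. Genes of the non-muscle cytoskeleton had a box in 2 of 22 (9.09%), Actg1 and Vcl, and Srf itself had a pair. The boxes of 4 of these genes are shown as examples. That of Myl6 begins 50 bases before the start (chr10:128493040-128493069, minus strand, touching an annotated exon) and that of Cnn2 56 bases (chr10:79988524-79988573, plus strand). That of Fhl1 begins 102 bases before it (chrX:56779561-56779610, plus strand) and that of Actg1 90 bases (chr11:120348556-120348605, minus strand). As for Acta2, the windows of Fhl1 and Myl6 lie inside the GENCODE span of the gene (chrX:56731787-56793346 and chr10:128490860-128494145), because the starts are those of RefSeq. A match is a description of the letters and not evidence that SRF binds there.
Myl6: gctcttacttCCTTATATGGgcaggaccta
Cnn2: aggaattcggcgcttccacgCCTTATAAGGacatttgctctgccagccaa
Fhl1: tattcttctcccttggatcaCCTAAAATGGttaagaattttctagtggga
Actg1: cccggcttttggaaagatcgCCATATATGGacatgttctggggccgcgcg

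Genes of the non-muscle actin cytoskeleton were also higher, by smaller factors than the contractile genes. Of 24 genes of this cytoskeleton and of focal adhesions, 22 were higher and 2 lower, with a median ratio of 1.40 (31.5% of all genes were higher). Actb and Actg1, the cytoplasmic actins, stood at 11851 and 7112 CPM (1.67, 1.65 to 1.68) and at 2684 and 1644 CPM (1.63, 1.61 to 1.66). Vcl (vinculin, which links integrins to actin) had a ratio of 1.93, Itga5 (a subunit of the fibronectin receptor) 1.89, Flna (filamin A) 1.66 and Actn4 (α-actinin 4) 1.52. Pxn (paxillin, an adaptor at focal adhesions) was lower, at 22.4 and 36.1 CPM (0.621, 0.520 to 0.736).

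Of 3284 genes of at least 50 CPM outside the score, 477 (14.5%) were higher in the contractile VSMCs in all 4 hashtags and 725 (22.1%) lower in all 4. The 15 with the largest ratio among the first included Tpm2, F3, Nexn, Ankrd1, Galnt18, Dstn, Tpm1, Msrb1, Fermt2, Cnn2, Palld, Gadd45g, Ccn2 and Abracl, with ratios from 3.20 down to 2.02. Several act on actin or adhesions: Dstn (destrin, which severs and depolymerizes actin filaments) at 3359 and 1486 CPM, Fermt2 (kindlin-2, an activator of integrins) at 370 and 172 CPM, and Palld (palladin, an actin crosslinker) at 308 and 146 CPM. F3, tissue factor, the starter of coagulation, was at 287 CPM (274 to 301) and 92.3 CPM (90.5 to 94.1), and in the hashtags its ratio was 1.93, 3.64, 2.93 and 4.90. Galnt18 (a glycosyltransferase), Msrb1 (an enzyme that reduces oxidized methionine, also in actin), Gadd45g (a stress-response gene) and Abracl had ratios of 2.32, 2.17, 2.11 and 2.02.

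The factors that control the contractile program differed in both directions. Of 15 genes, 13 reached 5 CPM, 5 of them were higher and 8 lower, with a median of 0.806, and among all genes 31.5% were higher. Prrx1, a homeobox factor, was the most abundant of them, at 421 and 527 CPM (0.799, 0.767 to 0.831). Its ratio was 0.972 (0.841 to 1.12) in hashtag 3 and 1.02 (0.905 to 1.14) in hashtag 4, with intervals that held 1. Srf was at 9.65 and 5.97 CPM (1.62, 1.22 to 2.11). Mrtfa, a myocardin-related factor, was at 113 and 95.7 CPM (1.18, 1.09 to 1.27). Its ratios were 1.45 and 1.36 in hashtags 1 and 4 and 0.810 and 0.785 in hashtags 2 and 3. Mrtfb, another myocardin-related factor, was lower, at 32.2 and 40.6 CPM (0.795, 0.686 to 0.917), and above 1 in hashtag 1 alone (1.03). Myocd, myocardin itself, had 12 UMIs in the contractile VSMCs (1.96 and 1.32 CPM), and its ratio of 1.49 had an interval of 0.750 to 2.68, so no difference was detectable. Klf4, a repressor of contractile genes, was at 71.5 and 88.8 CPM (0.806, 0.730 to 0.887) and above 1 in hashtag 2 alone. Sox9, a factor of cartilage and of modulated VSMCs, was lower (22.1 and 54.7 CPM, 0.404, 0.338 to 0.479). In hashtag 4 its ratio was 0.915 with an interval that held 1 (0.538 to 1.46).

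Genes of calcium handling and contraction signalling had 11 of 18 members higher and a median of 1.09, against 31.5% of all genes higher. Rock2 (a kinase that holds up myosin phosphorylation) was higher in all 4 hashtags, at 750 and 508 CPM (1.48, 1.43 to 1.52). Cacna1c, the pore of the L-type calcium channel, and Pkd2, a cation channel, were lower, with ratios of 0.582 (0.534 to 0.632) and 0.564 (0.496 to 0.639). Piezo1, the stretch-gated channel the study targeted by siRNA, was at 81.6 and 86.3 CPM, a ratio of 0.946 whose interval (0.863 to 1.04) held 1. Its ratio was 1.15, 1.06, 0.819 and 0.866 in hashtags 1 to 4, and Piezo2 stood at 38.3 and 29.0 CPM (1.32, 1.15 to 1.51). The angiotensin receptor gene Agtr1a had 3 UMIs in the contractile VSMCs and the calcium-activated potassium channel gene Kcnma1 had 0.

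YAP/TEAD target genes had 12 of 15 members higher, against 31.5% of all genes, with a median of 1.16, and the 3 that passed 2-fold were F3, Ankrd1 and Ccn2. Ankrd1 (a stretch-responsive cofactor of muscle) was at 354 and 117 CPM, with ratios of 3.50, 1.77, 1.84 and 7.11 in hashtags 1 to 4, and Ccn2 (connective tissue growth factor) at 308 and 147 CPM, with ratios from 1.60 to 3.32. Ccn1 (1.31) and Crim1 (1.31) came next, while Ptpn14 and Arhgef17 were lower (0.688 and 0.808). The list contained Yap1, Tead1 and Wwtr1 themselves, at 1.08, 1.04 and 0.905. The TEAD motif CATTCC, searched on both strands in the same 250 bases, was before 9 of the 12 of these genes with a promoter in the table and before 14.4% of all genes. It was before 4 of 11 such genes among the 15 with the largest ratio and 3 of 7 among the 10 with the smallest. The share of 9 in 12 thus describes a list of TEAD targets and not the contractile VSMCs.

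Genes of the TGF-β and activin pathway, which drives contractile gene expression in many settings, had 9 of 21 members higher, against 31.5% of all genes, and a median of 0.961. Thbs1 (thrombospondin 1, an activator of latent TGF-β) was at 2390 and 1612 CPM (1.48) and Inhba (activin A) at 482 and 332 CPM (1.45), both above 1 in all 4 hashtags. Tgfbr3 (the co-receptor betaglycan) and Fst (follistatin, which binds activin) were lower, at 0.512 and 0.508. The ratio of Fst was above 1 in hashtags 1 and 3 (1.06 and 1.08) and 0.501 and 0.323 in hashtags 2 and 4.

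Among 22 measured genes of the extracellular matrix, 14 were higher and 8 lower (median 1.10), and among all genes 31.5% were higher. The basement membrane collagens Col4a1 and Col4a2 had ratios of 1.62 and 1.59, and the collagen crosslinking enzyme Loxl2 1.74, but Col4a1 and Col4a2 were near 1 in hashtag 1 (1.02 and 1.04). Col3a1 (a fibrillar collagen), Col6a1 and Vcan (versican, a proteoglycan) were lower, at 0.603, 0.562 and 0.602. The ratio of Col3a1 was 0.929 and 1.006 in hashtags 2 and 3, with intervals that held 1. Eln, tropoelastin, had 0 UMIs in the contractile VSMCs and 0.184 CPM in the other cells.

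Spp1, osteopontin, a secreted product of modulated VSMCs and the most abundant gene of the modulated list, was lower in the contractile VSMCs. It was at 3268 CPM (3223 to 3314) against 7354 CPM (7337 to 7370), a ratio of 0.444. In the hashtags it stood at 2142 and 3440, 3523 and 8620, 2825 and 5898, and 3832 and 9380 CPM, so it was lower in each. The cells themselves overlapped widely: the median was 19.0 Spp1 UMIs per 10000 with quartiles of 7.02 and 44.6 in contractile VSMCs, and 55.7 with quartiles of 20.7 and 108 in other cells. Of 9 measured genes of modulated VSMCs, 7 were lower and 2 higher (median 0.798, where 31.5% of all genes were higher), among the lower ones Ly6a (0.557, below 1 in each hashtag), whereas Timp1, an inhibitor of metalloproteinases, stood at 3740 and 3274 CPM (1.14) and Vcam1 had a ratio of 1.002. The ratio of Timp1 was below 1 in hashtag 1 (0.924), and that of Vcam1 was 0.776, 1.24, 0.639 and 1.13 in hashtags 1 to 4. Tnfrsf11b (osteoprotegerin), under 5 CPM over all cells, was at 6.54 and 1.51 CPM on 40 UMIs.

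Of 18 inflammatory and secretory genes, 14 were lower and 4 higher, against 31.5% of all genes higher, and the median was 0.641 against 0.920 over all genes. Lcn2 (lipocalin 2, an iron-binding protein of acute inflammation) was at 287 and 840 CPM (0.342, 0.326 to 0.358), Mmp3 (stromelysin) at 251 and 614 CPM (0.408), Cp (ceruloplasmin) at 150 and 345 CPM (0.436) and Hgf (hepatocyte growth factor) at 9.49 and 39.6 CPM (0.239). Ptgs2 (cyclooxygenase 2) and Cxcl12 were the genes over 1.1, at 1.36 and 1.31. Over all cells Il6 (1.002) and Mmp10 (1.001) did not differ by more than their counting intervals. Within hashtags, Il6 had ratios of 1.405 and 1.389 in hashtags 2 and 4, and Mmp10 of 1.380 in hashtag 4, with intervals above 1. In their other hashtags the intervals held 1. The 10 lowest ratios among genes of at least 50 CPM that were lower in all 4 hashtags belonged to Serpina3g, Clu, Nrg1, Il1rl1, Lcn2, Akr1c18, Grm7, Brinp3, Gda and Prl2c2, from 0.263 to 0.403. Clu (the chaperone clusterin) was at 35.8 and 120 CPM and Il1rl1 (the receptor of interleukin 33) at 96.2 and 288 CPM, the latter with ratios of 0.542, 0.235, 0.613 and 0.427 by hashtag. Among the 10, Brinp3 and Akr1c18 were near 1 in hashtag 1. Their ratios there were 0.973 (0.819 to 1.15) and 0.920 (0.572 to 1.41), with intervals that held 1. Serpina3g and Prl2c2 have close relatives in their families, with which they may share reads.

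**Figure D3:**
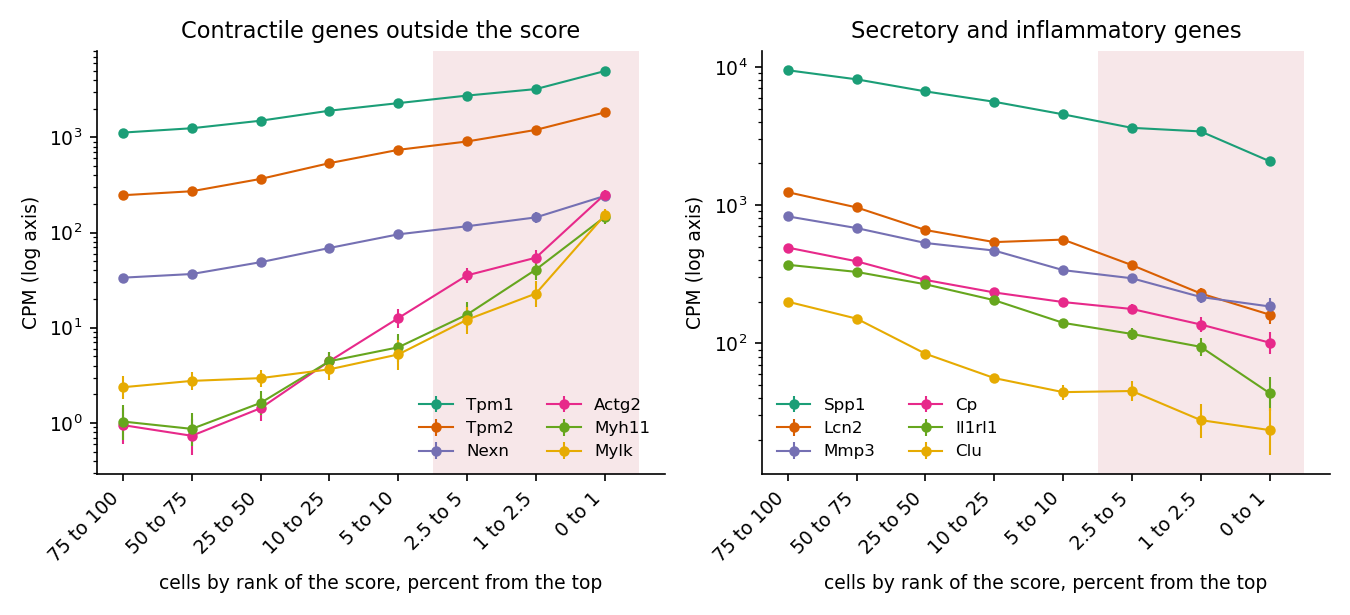
CPM (y axis, log scale) over 8 bins of cells by rank of the score, from the lowest 25% at left to the top 1% at right, with 95% Poisson bars; the shaded bins hold the contractile VSMCs. Tpm1, Tpm2 and Nexn are higher in each bin towards the top, Actg2, Myh11 and Mylk are at or below 5 CPM until the top 10% and above 100 CPM in the top 1%, and the 6 genes at right are lower at the top.

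The levels changed along the whole score and not at the boundary alone. Tpm2 was at 247 CPM in the lowest 25% of cells, 739 CPM in cells just outside the set (ranks 5% to 10%) and 1825 CPM in the top 1%, and Spp1 at 9458, 4537 and 2078 CPM in the same bins. Actg2 was at 0.949, 12.6 and 251 CPM and Myh11 at 1.04, 6.23 and 145 CPM, so these transcripts were concentrated near the top. The lowest 25% had shallower cells, with a median of 6485 UMIs against 7952 to 8866 in the other bins. Since the bins were cut on the score, the trends describe the ranking and were not tested.

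Genes of the cell cycle were present in the contractile VSMCs. The 14 measured DNA replication genes had a median ratio of 0.985, and of 0.749, 1.15, 1.09 and 0.871 in hashtags 1 to 4. Pcna, the replication clamp, was at 83.6 and 78.0 CPM (1.07, 0.978 to 1.17), with ratios of 0.814, 1.40, 1.34 and 0.896 in the hashtags. All 15 mitosis genes were lower (median 0.751, with 31.5% of all genes higher), such as Top2a (topoisomerase II) at 126 and 168 CPM (0.751, 0.698 to 0.807), but the median of the list was 1.09 in hashtag 3 and 0.595 in hashtag 4. Of 11 cyclins, CDK inhibitors and p53, 2 were higher and 9 lower (median 0.857), against 31.5% of all genes higher. Ccnd1 (cyclin D1) was at 708 and 844 CPM (0.839) and Cdkn1a (p21) at 691 and 661 CPM (1.05). The 13 interferon response genes were all lower over all cells (median 0.703), yet the list had medians of 0.847, 0.801, 1.05 and 1.14 within hashtags 1 to 4. Within hashtag 1, whose cells carried most interferon transcripts, Ifit3 was at 514 CPM in contractile VSMCs and 487 CPM in other cells, and in hashtags 2 to 4 it was between 12.1 and 22.7 CPM in both.

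Endothelial and leukocyte markers were close to 0, and fibroblast markers were abundant in both groups of cells. All 8 endothelial and all 8 macrophage and leukocyte markers were below 5 CPM, summing to 3.27 and 7.69 CPM in contractile VSMCs and 5.86 and 9.17 CPM in other cells; the most abundant were Kdr and Csf1r, and Cdh5, Ptprc and C1qa had 0 UMIs in the set. The part of other cell types in the results was not tested. Among 5 measured fibroblast markers 4 were lower (median 0.570), the list summing to 858 and 1004 CPM, led by Dcn (decorin, also made by VSMCs) at 400 and 545 CPM. Mfap5, a microfibril protein and nearly as abundant, was the higher one, at 399 and 344 CPM (1.16, 1.11 to 1.21) and above 1 in hashtags 2 to 4, and Pdgfra was at 24.9 and 51.0 CPM. All 3 measured pericyte markers were lower (median 0.528), the list summing to 54.3 and 71.0 CPM, most of it Pdgfrb, whose ratio was 1.004 and 1.010 in hashtags 1 and 4. Rgs5 and Mcam had 9 UMIs each in the set, with ratios of 0.185 and 6.42 (2.63 to 14.2). Epithelial and mesothelial markers summed to 50.6 and 32.7 CPM, with Perp at 23.2 and 13.6 CPM (below 1 in hashtags 1 and 3), Krt19 at 13.7 and 5.48 CPM, Krt18 at 1.64 and 3.58 CPM, and Epcam and Krt8 at 0 UMIs, and Schwann and neural markers to 8.83 and 9.95 CPM with Sox10 at 0.

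Of the 12 striated muscle markers, 11 were below 5 CPM over all cells and the list summed to 33.5 and 12.6 CPM. Acta1, skeletal α-actin, made most of that difference, at 19.3 and 1.03 CPM (18.8, 14.4 to 24.5) on 118 UMIs in 49 contractile VSMCs. Hashtags 1 to 4 held 6, 16, 3 and 0 of these UMIs, with ratios of 14.8, 7.05, 3.29 and 0. The rest lay in cells without a single hashtag. Actc1, cardiac α-actin, had 9 UMIs. Tnnc1, a troponin, was the most abundant over all cells, at 7.69 and 6.10 CPM. Myog and Myod1, which define skeletal muscle, had 0 UMIs in the set, as had the cardiac myosins Myh6 and Myh7.

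**Figure D4:**
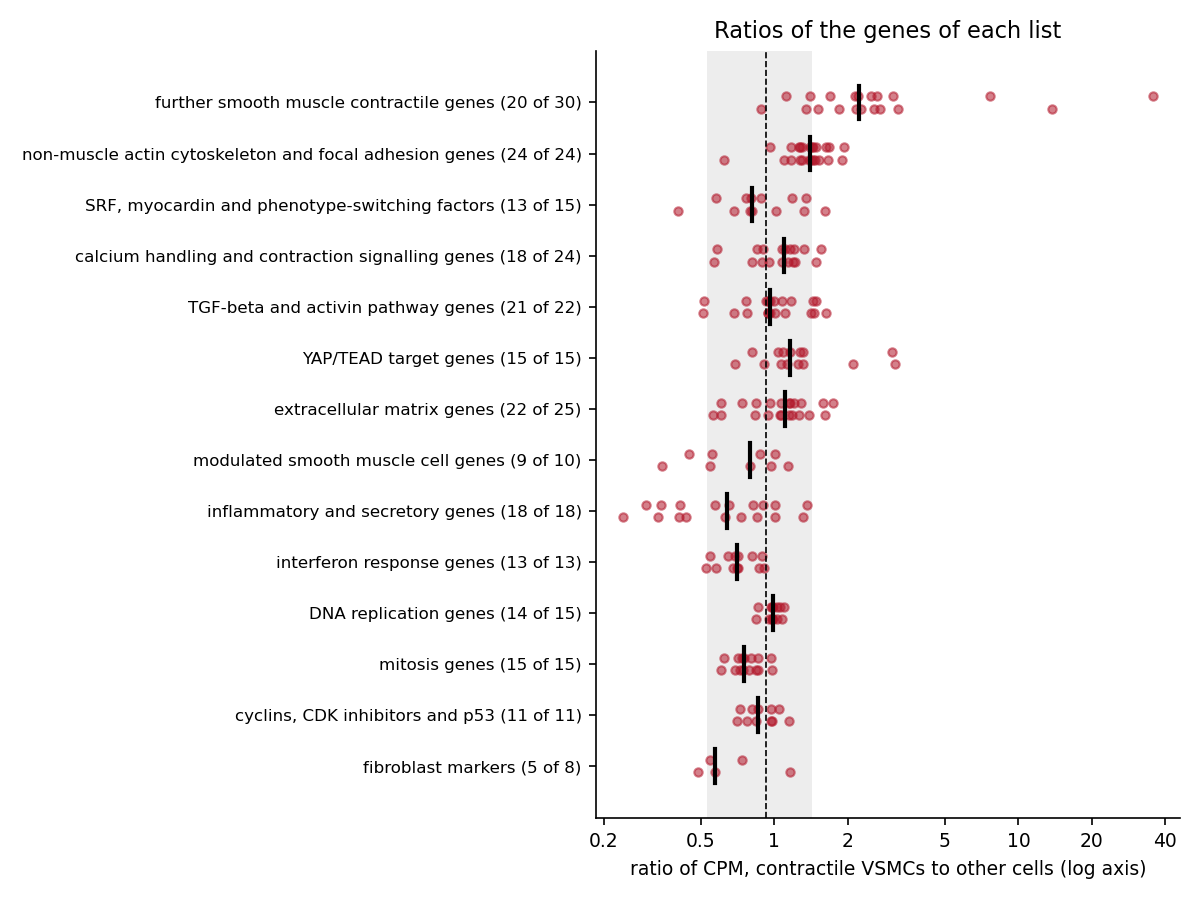
Ratio of CPM in contractile VSMCs to other cells (x axis, log scale) for each gene of at least 5 CPM in the lists with 5 or more such genes (sex-linked transcripts left out), with the number measured in parentheses and the list median as a black bar. The dashed line is the median of all 10260 genes (0.920) and the grey band their central 95% (0.528 to 1.42), a spread of single genes and not of list medians. The contractile list has its median at 2.23 and the inflammatory list at 0.641.

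The contractile VSMCs were spread over most clusters of the culture. Clusters were made with Seurat at a resolution of 0.8 and are given by number and leading genes. Cluster 6, led by Myl9, Acta2, Peg3 and Tagln, held 188 contractile VSMCs among 672 cells (28.0%, 24.6 to 31.5), and cluster 11, led by Cxcl10, Ifit3 and Ifit3b with Acta2 among its leading 10 genes, held 36 among 167 (21.6%, 15.6 to 28.6). The score genes are among those that made these clusters, so this is no independent grouping. Cluster 8, led by Crct1 and Camk1d, held 53 among 458 (11.6%, 8.79 to 14.9) and was the shallowest, with a median of 3282 UMIs. Cluster 3, led by Serpinb2 and Zfp804a with Ccn2 among its leading 10 genes, held 112 (5.99%), cluster 1, led by Hist1h1b, Mki67 and other cell cycle genes, 87 (4.31%), and cluster 2, led by Ifit3, Ifit3b and Rsad2, 62 (3.18%). Cluster 0, led by Clu, Csf3 and Peg10, held 8 of 2466 cells (0.324%), and cluster 9, led by Lmo7, Klra4 and Slpi, held 0 of 435, which allows up to 0.844%. Cluster 6 held 28.8% of all contractile VSMCs. Some clusters consisted mostly of 1 hashtag. Hashtag 1 made up 89.2% of the cells of cluster 2 and 94.6% of cluster 11, hashtag 4 made up 65.3% of cluster 9, and hashtag 3 made up 44.7% of cluster 3. In such clusters the share of contractile VSMCs cannot be told apart from a difference between hashtags.

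Contractile VSMCs of clusters 1 and 2 held leading transcripts of their cluster together with contractile transcripts. In cluster 1 they held Top2a at 431 CPM, against 523 CPM in the rest of the cluster, while the summed further contractile genes were at 9581 and 4762 CPM (2.01, 1.97 to 2.05). In cluster 2 Ifit3 was at 697 and 680 CPM and the summed contractile genes at 9400 and 4778 CPM, and in cluster 6 these sums were 12340 and 6639 CPM. Spp1 was lower in the contractile VSMCs in each of the 8 clusters with 30 or more of them, with ratios from 0.371 in cluster 1 to 0.760 in cluster 2. Scrublet marked 21.4% of the cells of cluster 1, 10.5% of cluster 2 and 22.8% of cluster 6 as doublets, and 83.1% of cluster 4, and the part of doublets in these values was not tested.

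A search that left the contractile and cytoskeletal genes out of the principal components was used to see how far the cells lay together on other genes. Of the 20 nearest neighbours of a contractile VSMC, a mean of 25.9% were contractile VSMCs, against 3.93% for other cells and a share of 5.00% in the library. At the same time 60 contractile VSMCs (9.20%) had none among their neighbours. For contractile VSMCs of hashtags 1 to 4 the mean was 15.2%, 31.1%, 17.4% and 26.0%. Their neighbours could come from any hashtag or from cells without one, so the search was not made within hashtags.

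UMIs of Actg2, Myh11 and Mylk were unevenly spread over the set. No UMI of Myh11, Actg2 or Mylk was found in 437 contractile VSMCs, 1 of these genes in 139 (21.3%), 2 in 58 (8.90%) and all 3 in 18 (2.76%), with median scores of 8.63, 9.69, 10.8 and 14.1. The 10 cells with most UMIs held 44.2% of the Myh11 UMIs of the set, 44.9% of those of Mylk and 27.9% of those of Actg2, but 10.2% of those of Acta2 and 5.50% of those of Tpm2. A few cells thus carry the Myh11 and Mylk values, whereas the tropomyosin values rest on nearly all of the 652.

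Cells were assigned to hashtags with HTODemux at the 0.99 quantile, and 5307 cells had no hashtag above background and 1068 more than 1. Contractile VSMCs were 128 of 3117 cells of hashtag 1 (4.11%, 3.44 to 4.86), 54 of 573 of hashtag 2 (9.42%, 7.16 to 12.1), 62 of 1468 of hashtag 3 (4.22%, 3.25 to 5.38) and 42 of 1512 of hashtag 4 (2.78%, 2.01 to 3.74). Among cells without a hashtag they were 331 (6.24%, 5.60 to 6.92), which is 50.8% of the set. The share in hashtag 2 was 2.29 times that in hashtag 1 and its interval lay above those of the other 3, while those of hashtags 1, 3 and 4 overlapped each other. Cells of hashtag 2 that were not contractile VSMCs had a median of 10594 UMIs, against 6766 in hashtag 1, 9450 in hashtag 3 and 9749 in hashtag 4, and with each cell thinned to 5000 UMIs the shares were 4.47%, 8.99%, 4.63% and 2.36%. The contractile VSMCs themselves had medians of 6983, 12424, 8955 and 13445 UMIs in hashtags 1 to 4. Each hashtag is 1 culture, so the spread between cultures is unknown and no difference between hashtags was tested.

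**Figure D5:**
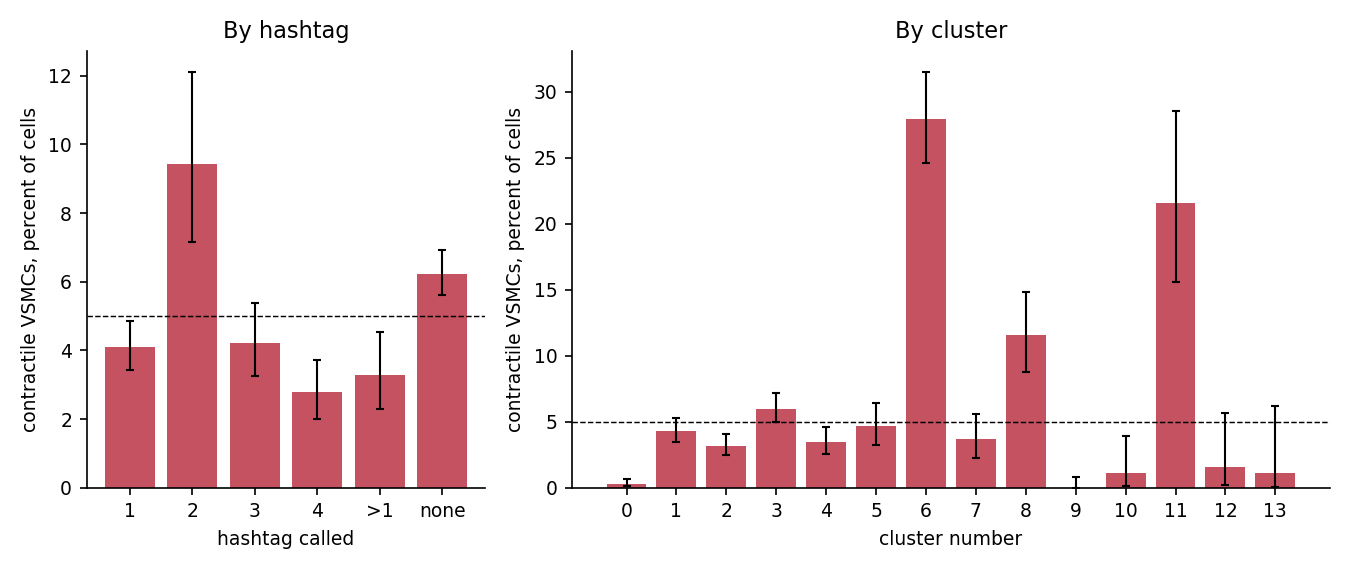
Percent of cells that are contractile VSMCs (y axis) by hashtag call, where >1 and none are cells with more than 1 and no hashtag, and by cluster number, with 95% Clopper-Pearson bars and a dashed line at the 5% of the whole library. The bars of hashtag 2 (9.42%), cells with no hashtag and clusters 6, 8 and 11 lie wholly above the line, and those of hashtags 1 and 4, cells with more than 1 hashtag and clusters 0, 2, 4, 9 and 10 below it.

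The score genes were higher in the contractile VSMCs of each hashtag because the score chose the cells, and their levels are given to describe each hashtag. Acta2 stood at 3848 and 216 CPM in hashtag 1, 3443 and 217 CPM in hashtag 2, 2181 and 217 CPM in hashtag 3, and 1937 and 113 CPM in hashtag 4. Its level in contractile VSMCs was therefore lowest in hashtags 3 and 4, and in other cells it was lower in hashtag 4 than in the rest. Cnn1 in contractile VSMCs ranged from 60.3 CPM in hashtag 3 to 267 CPM in hashtag 2, and Tagln from 2568 CPM in hashtag 1 to 4381 CPM in hashtag 2. The further contractile genes had median ratios of 2.62, 2.03, 1.86 and 2.24, those of the inflammatory list 0.674, 0.408, 0.802 and 0.696, and those of the cytoskeletal list 1.317, 1.365, 1.195 and 1.505. The order of each list was the same in every hashtag, with the contractile list above the cytoskeletal list and the inflammatory list below both.

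Contractile VSMCs of different hashtags also differed from each other in genes outside the contractile program. Ly6a, a surface protein of modulated VSMCs, stood at 1392 CPM in those of hashtag 1, 334 CPM in hashtag 3, 48.3 CPM in hashtag 2 and 26.4 CPM in hashtag 4, and in the other cells it followed the same order for hashtags 1 and 3 over the rest, at 1989, 421, 82.1 and 97.1 CPM. Ccl5, an interferon-induced chemokine, was at 417 CPM in contractile VSMCs of hashtag 1 and between 7.53 and 16.6 CPM in the others. Cxcl5, a neutrophil chemokine, was 10.7-fold (7.48 to 15.9) higher in hashtag 3 than in hashtag 2, and Ccl20 17.5-fold (8.60 to 41.3) higher in hashtag 4 than in hashtag 3. The genes of this paragraph were chosen after their values were seen. Hashtag, culture and treatment cannot be told apart in these values.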

How the data were processed

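The deposited values are raw UMI counts of 32285 genes and 4 hashtags per barcode, made by the authors with Cell Ranger 4 from a 10x 3′ library, with no filter on cells and with a genome build that the sources used here do not give. Per the submitters' notes Seurat was also used. The cell limit of 2218 UMIs was 10-fold below the 99th percentile over the 10000 deepest barcodes, and 200 genes were required. Hashtags were called with HTODemux in Seurat 5.3.0 (R 4.3.3), clusters came from 2000 variable genes and 30 principal components, and the neighbour search used 1979 genes without the contractile and cytoskeletal lists. Scrublet (scanpy 1.11.5, Python 3.11.15, expected rate 0.1) marked 23.4% of cells as doublets, above that rate, and these were kept.

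Counts were summed over cells and divided by the sum to give CPM. Intervals were exact Poisson for CPM, conditional exact binomial for ratios and Clopper-Pearson for shares. Cells are not replicates, so no p-value was computed. The members and the 22 gene lists were chosen with earlier results of these data known. Named genes were the 5 score genes, genes of the lists, and the 15 highest and 10 lowest ratios among genes of at least 50 CPM with 1 direction in all 4 hashtags. Genes that lead a cluster are given as labels of it. Slpi, Ccl5, Ccl20, Lce1g, Ebf1 and Serpinb2 lie outside this rule and were chosen after their values were seen. Thinning drew 5000 UMIs per cell without replacement and left out 95 members and 2338 other cells. Some named genes are not reported here. The alternatives were thinning, doublet removal, other sizes of the set (2.5% and 10%), z-scores, other hashtag rules, other level filters and a choice within hashtags.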

Additional observations from a re-analysis of the deposited data

Results flagged for a closer look

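The genes considered were 223 of at least 20 CPM, from the lists, the named genes and further genes such as Slpi. Of these, 14 had a ratio with an interval above 1 in 1 hashtag and below 1 in another. Among the 14, 5 reached 1.5 or more in 1 hashtag and 0.67 or less in another. The difference between hashtags was not tested for any of them, since each hashtag is 1 culture. Slpi, a protease inhibitor, had a ratio of contractile VSMCs to other cells of 2.24 in hashtag 1, 0.189 in hashtag 2, 0.410 in hashtag 3 and 0.187 in hashtag 4, the last 3 on 12 UMIs each. Cxcl5 had 0.688, 0.337 and 0.492 in hashtags 1 to 3 and 1.76 in hashtag 4. Cenpf, a kinetochore gene, had 1.69 in hashtag 3 on 31 UMIs, and 0.566, 0.546 and 0.286 in hashtags 1, 2 and 4. Mmp13 (collagenase 3) had 1.57 in hashtag 2, and 0.660, 0.476 and 0.370 in hashtags 1, 3 and 4. Mgp (matrix Gla protein, an inhibitor of calcification) had 0.629 in hashtag 1 and 1.501, 1.099 and 1.073 in hashtags 2 to 4, from 995 and 1582 CPM in hashtag 1 and 1702 and 1134 CPM in hashtag 2.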

How the results depend on the processing

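The order of hashtags 2 over 1 and 1 over 4 in the share of contractile VSMCs was the same under each of the 8 alternatives that give shares. With the top 2.5% the shares were 2.02%, 5.06%, 1.70% and 1.32% in hashtags 1 to 4, and with the top 10% they were 8.34%, 16.9%, 11.4% and 5.56%, moves that follow from the size of the set. With cells of 1% to 20% mitochondrial UMIs alone, an alternative added after seeing the data, hashtag 3 had 6.48%. The median ratio of the further contractile genes lay between 1.86 (cells of hashtag 3 alone, also added later) and 2.63 (top 2.5%). Genes 2-fold or more higher numbered 29 with the top 2.5%, 12 with the top 10% and 55 at 5 CPM or more. Those 2-fold or more lower numbered 138 without doublets, 147 with the top 2.5%, 40 with the top 10%, 27 with the top 5% of each hashtag, 191 at 5 CPM or more and 31 at 50 CPM or more. With thinning, the left-out genes gave 12.3 for Acta2, 7.23 for Tagln and 19.7 for Cnn1. Of 1498 values of 214 single genes, 8 crossed 1: Ltbp2 to 0.992 with the top 2.5%, Ltbp1 to 1.01 with z-scores, and with the top 5% of each hashtag Itpr1 to 0.923, Axl to 0.995, Mgp to 1.01, Ccl2 to 1.01, Saa3 to 1.03 and Ifit3 to 1.002; the cause was not tested. The labels give no replicate numbers by which samples could be paired. Each hashtag held both contractile VSMCs and other cells, and ratios within each hashtag stand in the report, without a test. Depth limits Myocd, Des and the ion channel genes with few UMIs, and hashtag 2, with 573 cells, has the widest interval of its share in percentage points among the 4 hashtags.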

Other observations

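Xist, the RNA that coats the silenced X chromosome, differed more between hashtags than between contractile VSMCs and other cells. In contractile VSMCs it was at 102 CPM in hashtag 1, 411 CPM in hashtag 2, 63.8 CPM in hashtag 3 and 666 CPM in hashtag 4, and in the other cells at 109, 636, 110 and 774 CPM. Over all cells it was at 281 CPM in contractile VSMCs and 407 CPM in other cells (0.691), while 1 of the 6 sex-linked transcripts of the list was higher (median 0.765), and the Y-linked Ddx3y and Eif2s3y were at 42.04 and 40.64 CPM and at 23.2 and 23.3 CPM. The contractile VSMCs of hashtag 3 had more Lce1g than those of hashtag 1 (162 and 5.86 CPM, 27.7-fold on 6 UMIs in hashtag 1), and more Ebf1 (336 and 43.8 CPM) and Serpinb2 (1595 and 208 CPM) than those of hashtag 2. These genes were chosen after their values were seen, and the differences were not tested.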
